A study of Mus musculus with 18 samples.

Results

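The 9 genes described here encode the aryl hydrocarbon receptor (AHR) and the enzymes around it that turn the carcinogen DMBA into its DNA-binding form. They were chosen by name, with earlier results of these data known. The set holds the receptor Ahr, its repressor Ahrr, the related partner Arnt2, the target genes Cyp1a1, Cyp1b1 and Tiparp, the P450 Cyp2s1, the P450 reductase Por and the epoxide hydrolase Ephx1. Each had 1 row among the 52636 genes of the count table. AHR is a ligand-activated transcription factor that waits in the cytosol in a complex with HSP90, moves to the nucleus when it binds a polycyclic aromatic hydrocarbon such as DMBA, pairs with ARNT and switches on P450 genes. The P450 enzymes CYP1A1 and CYP1B1, fed with electrons by the reductase POR, oxidise DMBA, and microsomal epoxide hydrolase opens the epoxide so that a further oxidation yields the mutagenic diol epoxide. In mouse skin this activation is the first step of chemically induced papillomas, while AHR also takes part in keratinocyte differentiation without any added ligand.

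RNA was sequenced from sorted EpCAM+ epidermal cells of C57BL/6 mice that were adult when treatment began. All mice carried floxed Zfp36, the gene of the RNA-binding protein tristetraprolin; Zfp36 fl/fl mice kept it, and their Zfp36 ΔK14 littermates had lost it through Cre recombinase driven by the keratin 14 promoter, which acts in basal keratinocytes and the cells that descend from them. Mock skin had no carcinogen, treated skin was the nontumoral skin next to tumors after topical DMBA (the initiator) and repeated TPA (a phorbol ester that promotes tumors), and tumors were the papillomas of the same protocol. DMBA was given only at the start, so the treated skin and tumors were sampled long after the last exposure. The labels name whole skin as the source and call the treated samples tumoral keratinocytes, whereas the methods of the study describe sorted cells, negative for leukocyte, fibroblast and endothelial surface markers, and nontumoral treated skin.

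There were 3 columns of counts per group, but those of Zfp36 ΔK14 mock skin replicates 2 and 3 were identical in all 52636 genes and were used once, which left 17 libraries. Totals ran from 2808550 to 9617985 counts, so that 3 counts, the limit that a count of 0 allows, equalled 0.289 to 1.5 CPM (counts scaled to the library's size) depending on the library. These limits cover counting error only. Zfp36 lay between 151.5 and 712.7 CPM in the fl/fl libraries and between 10.1 and 38.4 CPM in the ΔK14 libraries. The 6 keratinocyte markers all had counts in every library, with a summed level of 3261 to 29990 CPM. The sum was lowest in replicate 1 of both mock groups (3356 and 3261 CPM) and in replicate 1 of ΔK14 treated skin (4624 CPM), and fibroblast markers, which the sort should remove, still summed to 30.3 to 1671 CPM. All CPM below are on library sizes scaled by the TMM method.

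Of the 9 genes, 6 were expressed well enough to be tested in every comparison (Ahr, Tiparp, Cyp1b1, Cyp2s1, Por and Ephx1), and the filter on low counts removed Ahrr, Arnt2 and Cyp1a1 from all of them. Fitted without that filter, these 3 were called in 0 of 12 comparisons, with adjusted p of at least 0.416, 0.369 and 0.171. Calls among these genes came only from comparisons with tumors. Tiparp and Por rose and Cyp1b1 fell in tumors against treated skin of both genotypes, and Cyp2s1 fell in fl/fl tumors. No member was called between genotypes or between treated and mock skin. Over all genes, 18.0% were called in fl/fl and 26.0% in ΔK14 tumors against treated skin. Between treated and mock skin it was 0%, and between genotypes at most 0.0284%. Called means a change of more than 2-fold with an adjusted p under 0.05 in edgeR's quasi-likelihood test.

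**Figure D1:**
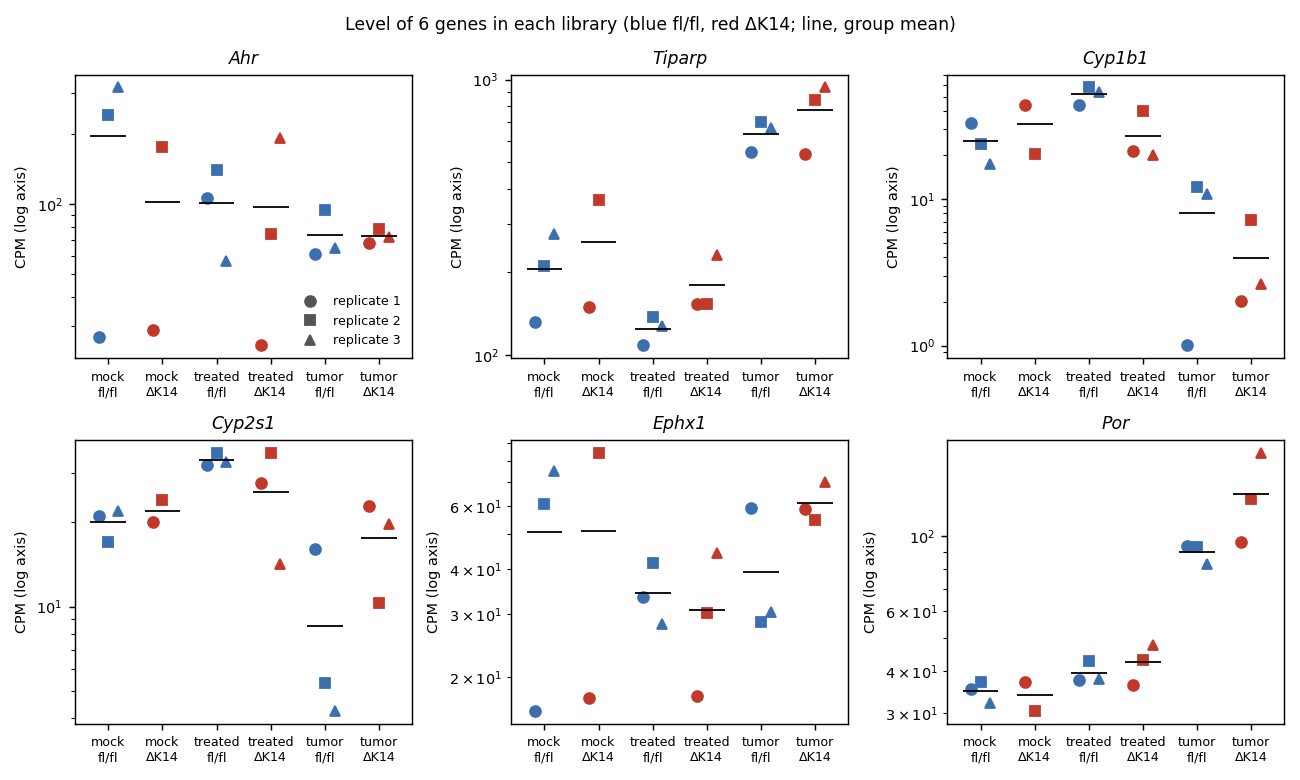
Level of 6 genes (CPM, log axis) in each library by group, blue for fl/fl and red for ΔK14, with the replicate number as symbol and the group mean as line. Tiparp and Por are higher in all 6 tumor libraries than in any other, Cyp1b1 is lower, and Ahr and Ephx1 are lowest in replicate 1 of both mock groups and of ΔK14 treated skin. Between tumors and treated skin, 45.9% of all genes tested in fl/fl and 52.1% in ΔK14 mice did not overlap.

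Ahr (ENSMUSG00000019256, chr12:35497974-35535038 of GRCm38, minus strand) was at 26.8, 241.7 and 316.5 CPM in the 3 fl/fl mock libraries and at 28.9 and 174.9 CPM in the 2 ΔK14 mock libraries. In treated skin it was at 106.2, 140.1 and 56.6 CPM in fl/fl and at 24.7, 74.3 and 192.7 CPM in ΔK14 cells. The tumors were much closer to each other, at 61.1, 94.2 and 65.0 CPM in fl/fl and 67.8, 78.0 and 71.9 CPM in ΔK14. The receptor mRNA therefore spread over 10-fold within mock skin, and the tumor libraries lay inside that spread. The lowest values came from the 3 libraries with the lowest keratinocyte marker sums. Those libraries also held the most Dcn, a fibroblast proteoglycan gene (841.7 CPM in fl/fl mock replicate 1, 973.0 CPM in ΔK14 mock replicate 1 and 839.4 CPM in ΔK14 treated replicate 1, against 46.9 to 386.6 CPM in the other mock and treated libraries). The other 5 fibroblast markers summed to 511.6, 1574 and 457.8 CPM in fl/fl mock replicates 1, 2 and 3 and to 59.9 and 914.9 CPM in the 2 ΔK14 mock libraries. In ΔK14 treated replicates 1, 2 and 3 they summed to 112.4, 483 and 81.4 CPM. Replicate 1 thus had the highest sum in none of these groups, but in fl/fl mock and ΔK14 treated skin it lay above replicate 3. Melanocyte markers summed to 318.3, 277.6 and 364.5 CPM in the same 3 libraries, against 41.0 to 129.6 CPM in the other mock and treated libraries, and hair follicle markers to 510.2, 598.3 and 693.2 CPM, against 818.1 to 2754 CPM. The part of these differences in the Ahr values was not tested.

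No comparison called Ahr. In fl/fl mice it differed by a log2 fold change of -0.93 (SE 0.80, adjusted p = 0.922) between treated and mock skin and by -1.43 (SE 0.74, adjusted p = 0.263) between tumors and mock skin. Against treated skin, tumors differed by -0.47 (SE 0.32, adjusted p = 0.310) in fl/fl and by -0.50 (SE 0.56, adjusted p = 0.515) in ΔK14 mice. These values hung on single libraries. Without fl/fl mock replicate 1, Ahr was called lower in tumors (-1.94, adjusted p = 0.00501) and in treated skin (-1.44, adjusted p = 0.0197), but then 3277 of 15636 genes were called in tumors against mock skin (632 of 15394 with all libraries) and 2587 of 17103 in treated against mock skin (0 of 16601). In ΔK14 mice the difference between tumors and mock skin was -0.58 (SE 0.63, adjusted p = 0.557), and it turned from a call of -1.30 without mock replicate 1 (adjusted p = 0.00353) to a call of 1.32 without mock replicate 2 (adjusted p = 0.00912). Of all genes, 4573 of 16269 were called without the first and 3585 of 16304 without the second, against 2144 of 15027 with both.

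Among the receptor's partners and its repressor in the set, Arnt2 (ENSMUSG00000015709, chr7:84246278-84410176, minus strand), a relative of ARNT best known from neurons, had 57 counts over all 17 libraries, with 0 to 15 in each. Ahrr (ENSMUSG00000021575, chr13:74211118-74292331, minus strand), which competes with AHR for ARNT and is itself induced by AHR, had 70 counts in all. In fl/fl mock skin Ahrr had 3, 26 and 11 counts, and no other library had more than 9. ΔK14 mock skin had 1 and 0, treated skin 4, 1 and 5 in fl/fl and 0, 2 and 1 in ΔK14, and tumors 0, 9 and 1 in fl/fl and 0, 3 and 3 in ΔK14. The 2 highest counts both belonged to fl/fl mock skin, but its first library overlapped the other groups. Neither gene passed the low-count filter.

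Cyp1a1 (ENSMUSG00000032315, chr9:57687928-57703824, plus strand), the classical AHR target, was close to absent, with 38 counts over the 17 libraries and 0 counts in 5 of them. Its counts were 4, 2 and 3 in fl/fl mock skin and 1 and 0 in ΔK14 mock skin. In treated skin they were 0, 1 and 3 in fl/fl and 1, 3 and 0 in ΔK14. Tumors gave 0, 13 and 0 counts in fl/fl and 1, 5 and 1 in ΔK14. Only fl/fl tumor replicate 2 went beyond 5 counts, at 1.98 CPM. The same library held the 9 Ahrr counts and a sum of 3334 CPM of 6 sebaceous gland markers. Fl/fl tumor replicate 3, with 6229 CPM of those markers, had 0 Cyp1a1 and 1 Ahrr count, and the other 15 libraries summed to 130 to 623.3 CPM. Cyp1a2, the neighbour and close relative of Cyp1a1, had at most 2 counts in any library.

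**Figure D2:**
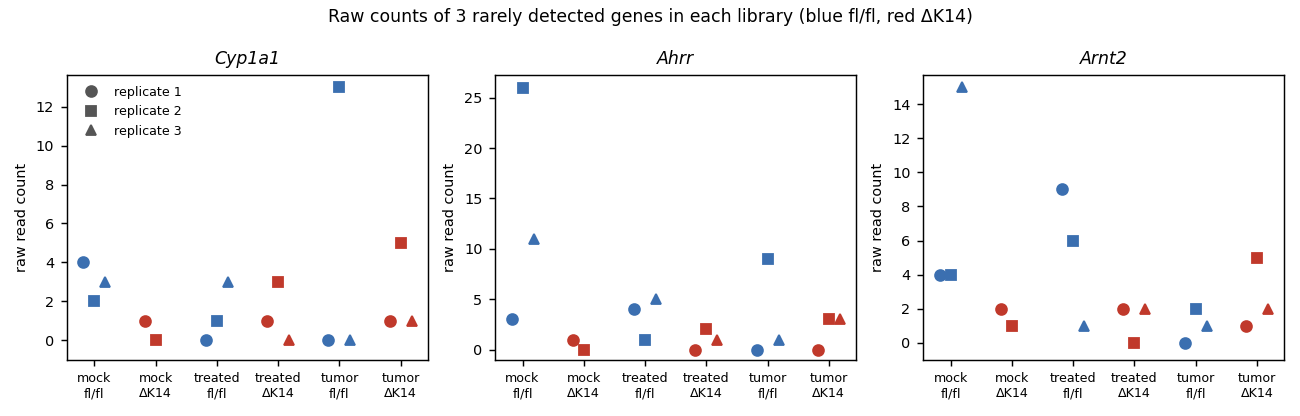
Raw read counts of Cyp1a1, Ahrr and Arnt2 in each library, blue for fl/fl and red for ΔK14, with the replicate number as symbol. Cyp1a1 stays at 5 counts or fewer except for 13 in fl/fl tumor replicate 2, and Ahrr exceeds 9 counts only in fl/fl mock replicates 2 and 3.

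Cyp1b1 (ENSMUSG00000024087, chr17:79701537-79715061, minus strand), the P450 that carries most DMBA activation outside the liver, was at 33.3, 23.7 and 17.4 CPM in fl/fl mock skin and 44.2 and 20.5 CPM in ΔK14 mock skin. Treated skin reached 44.3, 57.9 and 54.0 CPM in fl/fl, and 21.3, 39.8 and 19.9 CPM in ΔK14 cells. Tumors were at 1.0, 12.2 and 10.8 CPM in fl/fl and at 2.01, 7.24 and 2.65 CPM in ΔK14, with only 2 counts in fl/fl tumor replicate 1. Every tumor library was below every mock and treated library. Of all genes tested, 24% in fl/fl and 23.7% in ΔK14 mice were lower in tumors than in treated skin without overlap. Fl/fl treated skin stood above both fl/fl mock skin and ΔK14 treated skin without overlap.

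Against treated skin Cyp1b1 fell by 2.62 on the log2 scale in fl/fl tumors (SE 0.54, adjusted p = 0.0138) and by 2.86 in ΔK14 tumors (SE 0.50, adjusted p = 0.00336), 6.13-fold and 7.24-fold. Against mock skin it fell by 3.11 in ΔK14 tumors (SE 0.61, adjusted p = 0.0244), while the value in fl/fl tumors was -1.60 (SE 0.69, adjusted p = 0.189). The call against fl/fl treated skin was lost when any 1 treated library was left out (adjusted p = 0.0513 to 0.0523), and that against ΔK14 mock skin was lost without any 1 of the tumors (adjusted p = 0.0610 to 0.101). The call in ΔK14 tumors against treated skin stood without any 1 library. The 6 fibroblast markers summed to 375.2 to 1671 CPM in mock and treated libraries and to 30.3 to 385.5 CPM in tumors, and each of them had counts in all 6 tumor libraries. Dcn was called lower in all 4 tumor comparisons. The other 5 markers summed to 59.9 to 1574 CPM in mock and treated libraries and to 30.1 to 383.3 CPM in tumors, with overlap. Against treated skin, the list had a median of -0.85 on the log2 scale in fl/fl tumors, with 2 of 6 called lower, and of -0.01 in ΔK14 tumors, with 3 of 6 above 0, 3 below and Dcn the 1 call. Melanocyte markers summed to 41.0 to 364.5 CPM in mock and treated libraries and to 8.82 to 38.2 CPM in tumors, with 1 of 4 tested called lower in fl/fl and 3 of 4 in ΔK14 tumors against treated skin. Of 6 hair follicle markers, 1 was called higher and 3 lower in each genotype (medians -0.92 and -2.63). Over all genes tested, 7.50% were called higher and 10.5% lower in fl/fl tumors against treated skin, and 10.5% and 15.5% in ΔK14 tumors. The part of these marker differences in the fall of Cyp1b1 was not tested. In each genotype tumor replicate 2 had the highest fibroblast sum and the highest Cyp1b1 (196.6 and 12.2 CPM in fl/fl, 385.5 and 7.24 CPM in ΔK14). The lowest fibroblast sums were those of tumor replicate 3 (82.6 CPM in fl/fl and 30.3 CPM in ΔK14). It had 10.8 and 2.65 CPM of Cyp1b1, whereas Cyp1b1 was lowest in tumor replicate 1 of each genotype. In such data, fewer cells of a type and less RNA per cell cannot be told apart.

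**Figure D3:**
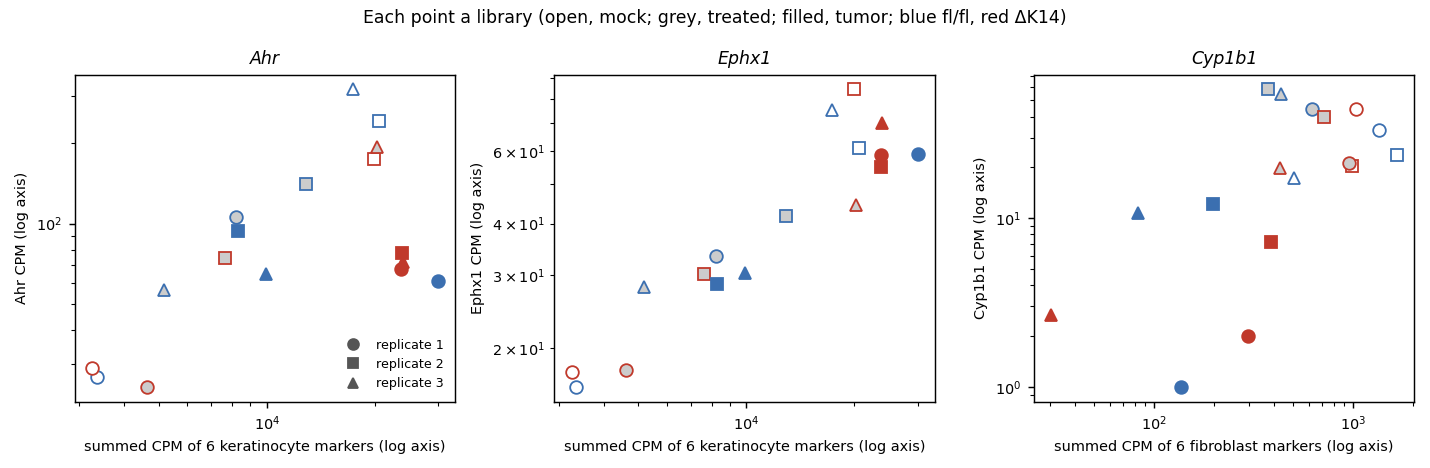
Ahr and Ephx1 against the summed level of 6 keratinocyte markers, and Cyp1b1 against that of 6 fibroblast markers, in CPM on log axes, with a point per library (open for mock, grey for treated, filled for tumor, blue fl/fl, red ΔK14). The 3 libraries with the lowest keratinocyte sums (3261 to 4624 CPM) have the lowest Ahr and Ephx1. In each genotype the tumor with the highest fibroblast sum has the highest Cyp1b1, but the tumor with the lowest sum does not have the lowest Cyp1b1.

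Between treated and mock skin, Cyp1b1 was higher in each fl/fl treated library than in any fl/fl mock library, by 1.08 on the log2 scale (SE 0.28, 2.11-fold), but it missed the threshold (unadjusted p = 0.00676, adjusted p = 0.634). In ΔK14 mice the difference was -0.26 (SE 0.47, adjusted p = 1.0). The difference between these 2 differences was -1.35 (SE 0.57), with an unadjusted p of 0.0398 and an adjusted p of 1.0. Within treated skin, ΔK14 cells held less Cyp1b1 than fl/fl cells by 0.96 on the log2 scale (SE 0.28), with an unadjusted p of 0.00909 and an adjusted p of 0.877. The genotypes differed by 0.37 (SE 0.48) in mock skin and by -1.21 (SE 0.75, adjusted p = 0.489) in tumors.

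Tiparp (ENSMUSG00000034640, chr3:65528410-65555518, plus strand) encodes an ADP-ribosyltransferase that AHR induces and that in turn represses AHR. It was at 131.9, 209.9 and 276.0 CPM in fl/fl mock skin and 149.2 and 364.2 CPM in ΔK14 mock skin. In treated skin it was at 108.3, 137.9 and 127.2 CPM in fl/fl and 153.7, 153.4 and 229.9 CPM in ΔK14. Tumors reached 546.4, 698.8 and 664.5 CPM in fl/fl and 537.8, 842.9 and 936.2 CPM in ΔK14 mice. Every tumor library exceeded every other library. Of all genes tested, 21.9% in fl/fl and 28.4% in ΔK14 mice were higher in tumors than in treated skin without overlap.

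Against treated skin Tiparp rose by 2.33 on the log2 scale in fl/fl tumors (SE 0.20, 5.02-fold, adjusted p = 0.00116) and by 2.01 in ΔK14 tumors (SE 0.25, 4.04-fold, adjusted p = 0.00104). Leaving out any 1 library kept both calls. Against mock skin the rise was 1.60 in fl/fl tumors (SE 0.33, adjusted p = 0.0426) and lost its call without mock replicate 2 or 3 or tumor replicate 2 or 3 (adjusted p = 0.0892 to 0.172). In ΔK14 tumors it was 1.49 against mock skin (SE 0.45, adjusted p = 0.0704), which missed the threshold, although DESeq2 and the exact test called it (adjusted p = 0.0138 and 0.0219). Without mock replicate 1, where Tiparp was lowest, the adjusted p was 0.0407, and without mock replicate 2 it was 0.00193. Of the tested target genes of AHR in the set, Tiparp was thus higher and Cyp1b1 lower in the same tumors.

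**Figure D4:**
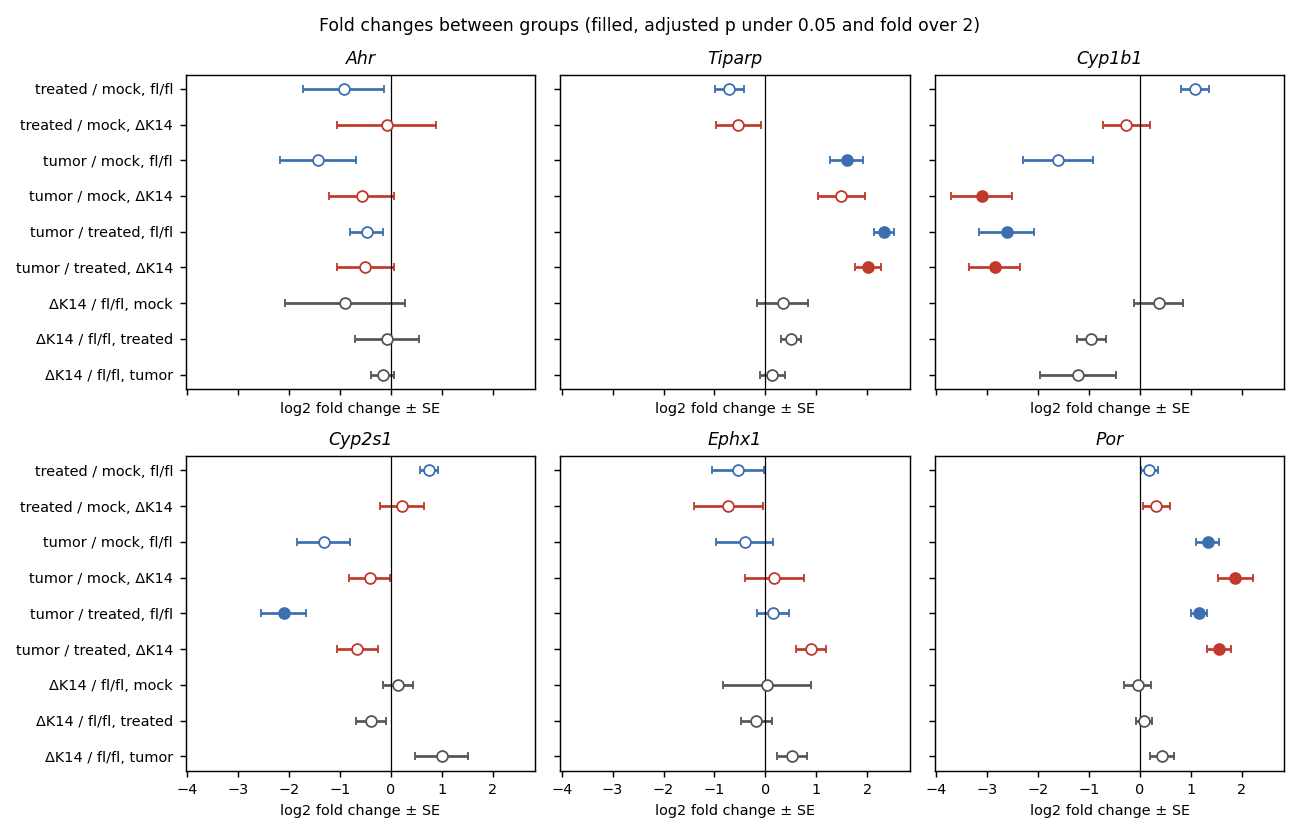
Log2 fold changes with standard errors of 6 genes in 9 comparisons of stages and genotypes, with the first-named group over the second, blue within fl/fl, red within ΔK14 and grey between genotypes. Filled points are calls (over 2-fold, adjusted p under 0.05): Tiparp and Por to the right and Cyp1b1 to the left in tumors against treated skin, and no point in the comparisons of genotypes or of treated with mock skin.

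The AHR-ARNT pair binds DNA at the core GCGTG. This core was searched on both strands, from 250 bases before to 50 bases after the RefSeq gene start, in RefSeq promoters of GRCm38.p6 that held 8 of the 9 members. It occurred 3 times at Ahrr and Por, once at Cyp1a1, Cyp1b1 and Tiparp, and 0 times at Arnt2, Ephx1 and Cyp2s1. Of all 32851 promoters, 32.4% held the core at least once and 3.91% at least 3 times. The longer core TNGCGTG, which contains the shorter, was found at Ahrr and in 5.07% of all promoters. A match is only a description of the letters. The stretches before the gene start that no annotated exon of the gene covers are shown for the 5 members with a core, from chr17:79715062-79715311 (minus strand) for Cyp1b1, chr3:65528197-65528409 (plus) for Tiparp, chr9:57697363-57697612 (plus) for Cyp1a1, chr13:74292332-74292581 (minus) for Ahrr and chr5:135688895-135689035 (plus) for Por. Capitals mark the core on either strand, so that CACGC is GCGTG on the other strand. The Tiparp stretch also lies in an exon of the antisense gene 4931440P22Rik.
Cyp1b1: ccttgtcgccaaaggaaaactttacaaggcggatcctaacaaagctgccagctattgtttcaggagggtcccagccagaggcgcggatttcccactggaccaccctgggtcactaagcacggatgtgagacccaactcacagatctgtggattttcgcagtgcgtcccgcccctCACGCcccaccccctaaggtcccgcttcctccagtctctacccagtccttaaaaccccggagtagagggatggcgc
Tiparp: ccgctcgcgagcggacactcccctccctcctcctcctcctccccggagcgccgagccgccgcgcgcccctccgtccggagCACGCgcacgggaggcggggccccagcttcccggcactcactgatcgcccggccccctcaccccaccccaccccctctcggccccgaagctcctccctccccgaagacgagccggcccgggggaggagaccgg
Cyp1a1: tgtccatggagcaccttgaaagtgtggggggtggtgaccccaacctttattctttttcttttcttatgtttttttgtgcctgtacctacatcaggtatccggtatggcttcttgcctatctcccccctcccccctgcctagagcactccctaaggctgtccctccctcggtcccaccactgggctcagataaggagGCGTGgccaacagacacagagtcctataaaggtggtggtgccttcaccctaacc
Ahrr: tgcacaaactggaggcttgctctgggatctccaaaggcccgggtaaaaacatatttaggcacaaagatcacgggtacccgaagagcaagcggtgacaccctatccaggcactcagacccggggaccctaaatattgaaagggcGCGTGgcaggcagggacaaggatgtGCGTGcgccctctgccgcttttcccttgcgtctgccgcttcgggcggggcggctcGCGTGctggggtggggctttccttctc
Por: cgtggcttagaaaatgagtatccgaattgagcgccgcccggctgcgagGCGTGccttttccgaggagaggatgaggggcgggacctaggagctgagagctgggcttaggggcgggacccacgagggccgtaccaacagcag
The Cyp1b1 core starts 76 bases before the gene start, that of Cyp1a1 54 bases before and that of Tiparp 170 bases before. The Por stretch shows only the core that starts 202 bases before the gene start, and ends before those at 62 and 24 bases. The genes with a single core thus included 1 that rose in tumors, 1 that fell and 1 that the low-count filter removed.

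Por (ENSMUSG00000005514, chr5:135670033-135735326, plus strand) encodes the reductase that passes electrons from NADPH to all microsomal P450s. It was the steadiest member outside tumors, at 35.5, 37.2 and 32.2 CPM in fl/fl mock skin, 37.2 and 30.5 CPM in ΔK14 mock skin, 37.7, 42.8 and 37.9 CPM in fl/fl treated skin and 36.5, 43.1 and 47.7 CPM in ΔK14 treated skin. Tumors were at 93.2, 93.0 and 82.9 CPM in fl/fl and at 96.0, 128.2 and 176.1 CPM in ΔK14. Tumor and nontumor libraries did not overlap, and the ΔK14 tumors all lay above the fl/fl tumors. The same held for 21.9% (fl/fl) and 28.4% (ΔK14) of all genes in tumors over treated skin, and for 13.7% in ΔK14 over fl/fl tumors.

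Against treated skin Por rose by 1.16 on the log2 scale in fl/fl tumors (SE 0.16, 2.23-fold, adjusted p = 0.00356) and by 1.55 in ΔK14 tumors (SE 0.23, 2.93-fold, adjusted p = 0.00202). Both calls stood when any 1 library was left out. Against mock skin it rose by 1.33 in fl/fl tumors (SE 0.23, adjusted p = 0.0272) and by 1.88 in ΔK14 tumors (SE 0.34, adjusted p = 0.0202). The first of these lost its call without mock replicate 2 or 3 or tumor replicate 2 or 3 (adjusted p = 0.117 to 0.138) and the second without tumor replicate 2 or 3 (adjusted p = 0.0861 and 0.0834). Between the genotypes the tumors differed by 0.43 (SE 0.24), which missed the threshold (adjusted p = 0.445).

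Cyp2s1 (ENSMUSG00000040703, chr7:25802475-25816913, minus strand) is a P450 of epithelia that can be induced through AHR. It was at 21.1, 17.0 and 21.9 CPM in fl/fl mock skin, 20.0 and 24.1 CPM in ΔK14 mock skin, 32.0, 35.4 and 32.7 CPM in fl/fl treated skin and 27.5, 35.3 and 14.2 CPM in ΔK14 treated skin. Fl/fl tumors held 16.0, 5.33 and 4.25 CPM and ΔK14 tumors 22.8, 10.3 and 19.7 CPM. The fl/fl tumors lay below all fl/fl skin libraries, whereas ΔK14 tumors overlapped both kinds of ΔK14 skin. Below fl/fl treated skin, 24% of all genes tested lay without overlap in fl/fl tumors.

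Cyp2s1 fell by 2.10 on the log2 scale in fl/fl tumors against treated skin (SE 0.44, 4.30-fold, adjusted p = 0.0146). In ΔK14 mice the same comparison gave -0.66 (SE 0.40, adjusted p = 0.225). The test of the difference between the genotypes gave 1.47 (SE 0.64, unadjusted p = 0.0394, adjusted p = 0.355). The fl/fl call was lost without any 1 of the treated libraries or without tumor replicate 3 (adjusted p = 0.0519 to 0.0616). Fl/fl tumor replicate 1, which had the lowest depth and the highest Cyp2s1 of its group, weighed on these values. Without it the difference between the genotypes was called (2.16, adjusted p = 0.0317), as was the higher level in ΔK14 than fl/fl tumors (1.74, adjusted p = 0.0122, against 1.0 with an SE of 0.53 and an adjusted p of 0.430 with all libraries). Without that library, however, 1352 of 17951 genes were called for the first of these and 2613 of 15463 for the second, the latter against 4 of 14067 with all libraries. The other 2 fl/fl tumors were those with 3334 and 6229 CPM of sebaceous gland markers, against 130 to 207.8 CPM in the other 4 tumors, and the part of this in the Cyp2s1 difference was not tested. Against mock skin, fl/fl tumors differed by -1.32 (SE 0.52, adjusted p = 0.161) and ΔK14 tumors by -0.41 (SE 0.40, adjusted p = 0.503).

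Ephx1 (ENSMUSG00000038776, chr1:180976210-181020904, minus strand), the microsomal epoxide hydrolase that acts between the oxidations of DMBA, was at 16.2, 60.8 and 75.2 CPM in fl/fl mock skin and 17.5 and 84.4 CPM in ΔK14 mock skin. Treated skin was at 33.4, 41.7 and 28.1 CPM in fl/fl and 17.7, 30.3 and 44.5 CPM in ΔK14. Tumors were at 59.1, 28.6 and 30.4 CPM in fl/fl and at 58.7, 54.7 and 70.0 CPM in ΔK14. As for Ahr, the lowest values were those of replicate 1 of both mock groups and of ΔK14 treated skin, the libraries with the lowest keratinocyte and the highest melanocyte marker sums. Among the fl/fl tumors, replicate 1 had both the highest Ephx1 and the highest keratinocyte sum (29990 CPM, against 8301 and 9922 CPM), and the ΔK14 tumors summed to 23660 to 23930 CPM. Whether the marker sums account for Ephx1 was not tested.

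In ΔK14 tumors Ephx1 was above treated skin without overlap, as were 28.4% of all genes tested. It differed by 0.89 on the log2 scale (SE 0.30, 1.86-fold, adjusted p = 0.0443), under the 2-fold limit. Without treated replicate 3 it passed the limit (1.24, adjusted p = 0.00949). In fl/fl tumors the difference from treated skin was 0.15 (SE 0.31, adjusted p = 0.746). Against ΔK14 mock skin it was 0.18 (SE 0.58, adjusted p = 0.854), but 1.79 without mock replicate 2 (adjusted p = 0.00371). The genotypes differed by 0.52 in tumors (SE 0.30, adjusted p = 0.458).

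Counted over the comparisons of stages, tumors against treated skin called 2 members higher and 2 lower in fl/fl mice, and 2 higher and 1 lower in ΔK14 mice. Of all genes tested, 7.50% were called higher and 10.5% lower in fl/fl, and 10.5% and 15.5% in ΔK14. Against mock skin, 2 were called higher and 0 lower in fl/fl tumors, and 1 higher and 1 lower in ΔK14 tumors, where 2.22% and 1.88% of all genes were called in fl/fl and 7.05% and 7.22% in ΔK14. The 0 lower calls in fl/fl tumors against mock skin stood in the exact test and DESeq2, which made the same number of calls (2). They did not stand in a single fit of all 6 groups (3 members and 17.6% of all genes called) or without the low-count filter (4 members and 7.64%). Ahr, Cyp1b1 and Cyp2s1 were each called lower in 1 of these fits. In the main test, 2 members that were lower had an unadjusted p under 0.05. So did 4038 of 15394 genes in either direction. The median log2 fold change of the 6 tested members was -0.16 in fl/fl tumors against treated skin and 0.20 in ΔK14 tumors, beside -0.02 and -0.03 over all genes, so the members did not share a direction. The comparisons with tumors share libraries.

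Between treated and mock skin 0 members and 0% of all genes were called in fl/fl mice, and likewise 0 members and 0% in ΔK14 mice. The exact test and DESeq2 also called 0 members. At an unadjusted p under 0.05 there were 3 members in fl/fl (Cyp1b1, Cyp2s1 and Tiparp) and 0 in ΔK14. Of all genes, 913 of 16601 in fl/fl and 763 of 15891 in ΔK14 mice were under that limit. In fl/fl mice Cyp1b1, Cyp2s1 and Por were higher in treated than in mock skin without overlap, where 5.39% of all genes were. Cyp2s1 differed by 0.75 on the log2 scale (SE 0.18, adjusted p = 0.580), and Tiparp by -0.71 (SE 0.28, adjusted p = 0.879), with overlap. Leaving out fl/fl mock replicate 1, the library with low keratinocyte markers, brought Ahr and Cyp1b1 to a call, the latter at 1.38 (adjusted p = 0.00453), along with 15.1% of all genes.

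The question of the study's genotypes is whether loss of tristetraprolin, which binds AU-rich elements in the 3′ untranslated region and speeds mRNA decay, changes transcript levels. No member was called, with 0 of 6 in mock skin, in treated skin and in tumors, beside 0%, 0.00616% and 0.0284% of all genes. The exact test and DESeq2 called 0 members as well, while over all genes they called 2 and 3 in mock skin, 44 and 36 in treated skin and 368 each in tumors, where the quasi-likelihood test called 0, 1 and 4. In mock skin the quasi-likelihood test did not call Zfp36 itself, which was 17.5-fold lower in ΔK14 cells (-4.13, SE 0.87, adjusted p = 1.0). At an unadjusted p under 0.05 there were 2 members in treated skin and 0 in mock skin and tumors. Of all genes, 901 of 16232 were under that limit in treated skin, 253 of 15920 in mock skin and 1975 of 14067 in tumors. In treated skin, 2 of 6 tested members did not overlap between the genotypes, Cyp1b1 lower and Tiparp higher in ΔK14 cells, where 11.7% of all genes did not. Tiparp differed there by 0.50 on the log2 scale (SE 0.20), with an unadjusted p of 0.0353 and an adjusted p of 0.897, and by 0.14 (SE 0.24, adjusted p = 0.836) in tumors. Ahr differed by -0.90 (SE 1.17) in mock skin, -0.08 (SE 0.63) in treated skin and -0.16 (SE 0.22) in tumors. Interactions of genotype with stage called 0 members in each of 3 tests, beside 0% for treated against mock skin, 0% for tumors against mock skin and 0.0118% for tumors against treated skin, and DESeq2 called 0 in each. The first and last of these had 1 member each at an unadjusted p under 0.05 and the second had 0. Over all genes these limits were met by 257 of 17694, 2243 of 17017 and 1423 of 17388.

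The heptamer TATTTAT, an AU-rich letter pattern to which tristetraprolin binds, was counted in 3′ untranslated regions of GENCODE transcripts (GRCm38), taking the longest per gene. Tiparp had 2 copies, Ahr, Arnt2 and Cyp1b1 had 1 each and the other 5 members had 0, while 27.4% of 21075 genes had at least 1. The shorter AU-rich pentamer ATTTA had 11 copies in Cyp1b1, 9 in Tiparp, 7 in Ahr, 3 in Arnt2, 2 in Ahrr and 1 in Cyp1a1. Ephx1, Por and Cyp2s1 had 0, and 65.7% of genes had at least 1. The sites of the tested genes are shown with the heptamer in capitals and 11 bases on each side.
Tiparp, first site: ttccacacaatTATTTATtttgccctagt
Tiparp, second site: gctttatgacaTATTTATttttttaataa
Ahr: tcaaagtccacTATTTATtgtgtaatata
Cyp1b1: cagtcttttctTATTTATagttcatacaa
The Tiparp sites start at bases 1326 and 1529 of a region of 1953 bases, that of Ahr at base 801 of 2715 and that of Cyp1b1 at base 1050 of 3140. In treated skin Tiparp, with 2 heptamers and 9 pentamers, was higher in ΔK14 cells. Cyp1b1, with 1 heptamer and 11 pentamers, was lower, and both were short of the threshold after adjustment.

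Per kilobase of exon, where genes can be compared with each other, Tiparp was the highest member in every group, at 47.3 ± 16.6 CPM per kb in fl/fl mock skin, 28.6 ± 3.44 in fl/fl treated skin, 146.1 ± 18.3 in fl/fl tumors and 177.2 ± 47.8 in ΔK14 tumors (SD, n = 3). In fl/fl mock skin Ahr followed at 31.6 ± 24.4 CPM per kb and Ephx1 at 26.0 ± 15.8, which did not differ beyond their spread, then Por at 8.69 ± 0.630, and Cyp1b1 at 4.24 ± 1.37 and Cyp2s1 at 4.05 ± 0.530, again within their spread. In fl/fl tumors the order changed to Por at 22.3 ± 1.45 and Ephx1 at 20.2 ± 8.78 CPM per kb, within their spread, then Ahr at 11.9 ± 2.93, Cyp2s1 at 1.73 ± 1.32 and Cyp1b1 at 1.37 ± 1.04. In ΔK14 tumors Por was at 33.2 ± 10.03 and Cyp1b1 at 0.680 ± 0.489 CPM per kb. Cyp1a1 stayed at or below 0.237 CPM per kb in all 6 group means. Per kilobase, Por was above Ahr in 6 of 6 tumor libraries and in 4 of 11 mock and treated libraries.

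The genes whose levels ran most alike were sought by Pearson's r of log2 CPM over the 17 libraries among 18251 genes. For Tiparp these were Cdkn1a (r = 0.982), the cell cycle inhibitor p21, and Gnai3 (r = 0.970). For Por they were Fst (r = 0.983), the activin-binding protein follistatin, and the cytokine gene Il19 (r = 0.982). Ahr ran most like Chdh (r = 0.986), choline dehydrogenase, and Itpr2 (r = 0.967), a calcium release channel. Ephx1 ran like Shisa5 (r = 0.965) and Pak6 (r = 0.964), Cyp1b1 like C130089K02Rik (r = 0.975) and Mettl25 (r = 0.962), and Cyp2s1 like Syde1 (r = 0.881) and Fut11 (r = 0.880). Since tumors and skin form separate clusters for several members, these values describe the libraries and carry no test.

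Other genes of the pathway were followed as lists. Beside their counts in tumors against treated skin, 7.50% of all genes tested were called higher and 10.5% lower in fl/fl mice. In ΔK14 mice it was 10.5% and 15.5%. The medians over all genes were -0.02 in fl/fl and -0.03 in ΔK14 mice on the log2 scale. Of the 8 partners and chaperones of AHR, all were tested, and tumors against treated skin called Hsp90aa1 and Hsp90ab1, which encode the HSP90 chaperone that holds AHR, higher in fl/fl (1.04 and 1.03 on the log2 scale) and ΔK14 mice (1.34 and 1.31), and 0 lower. Arnt, the usual partner of AHR, was at 45.4 to 87.6 CPM in the 17 libraries and was called in no comparison. The list's median in tumors against treated skin was 0.54 in both genotypes.

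Of 12 further target genes, 8 were tested in tumors against treated skin, and 2 were called higher and 0 lower in each genotype. Nqo1, the quinone reductase, lay between 3.40 and 16.4 CPM in the 11 mock and treated libraries. In tumors it was at 111.2, 16.1 and 38.5 CPM in fl/fl and 63.2, 65.6 and 101.6 CPM in ΔK14, so that fl/fl tumor replicate 2 touched the range of treated skin of the other genotype. It was called higher in all 4 tumor comparisons, for example by 2.67 in fl/fl (SE 0.66, adjusted p = 0.0244) and 2.87 in ΔK14 tumors (SE 0.46, adjusted p = 0.00240) against treated skin. Nfe2l2, the gene of NRF2, which also drives Nqo1, was the other call (1.12 and 1.56). Xdh, xanthine dehydrogenase, was called in ΔK14 tumors against mock skin (1.72, SE 0.31, adjusted p = 0.0204). The AHR target Aldh3a1 was not called, at 6.70 to 84.6 CPM in tumors and 3.78 to 98.6 CPM in skin. The list's median was 0.53 in fl/fl and 0.51 in ΔK14 tumors, with 7 of 8 and 6 of 8 genes above 0.

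Among 16 other P450s and electron donors, 11 were tested in fl/fl and 8 in ΔK14 tumors against treated skin. In fl/fl 0 were called higher and 2 lower, Cyp2b19, a keratinocyte arachidonate epoxygenase (-2.68, SE 0.78, adjusted p = 0.0387), and Cyp2j9 (-1.72, SE 0.34, adjusted p = 0.0121). Cyp2b19 had 0, 2 and 4 counts in the fl/fl tumors and 19, 22 and 29 in treated skin. In ΔK14 mice Cyp3a13 (-2.20, SE 0.63, adjusted p = 0.0250) and Cyp2g1 were called lower. Cyp2g1 had 0 counts in the 3 ΔK14 tumors and a mean of 3.58 CPM in treated skin, at least 6.03-fold more than the mean floor of 3 counts per tumor library. Cyp3a13 had 4 to 7 counts in the ΔK14 tumors and 8 to 48 in ΔK14 treated skin. Cyp2b19 in fl/fl and Cyp2g1 and Cyp3a13 in ΔK14 mice passed the low-count filter only through treated skin, so the filter fixed their direction. The call higher was Cyb5r3, the cytochrome b5 reductase (1.26, SE 0.19, adjusted p = 0.00183). Cyb5a, cytochrome b5, was not called. The list's median was 0.04 in fl/fl and -0.35 in ΔK14 tumors.

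Of 17 enzymes that detoxify epoxides, diols and quinones, 14 were tested in tumors against treated skin, with 6 called higher and 0 lower in fl/fl and 7 higher and 1 lower in ΔK14 mice. The list's median was 1.20 and 0.97 on the log2 scale. Akr1b8, an aldo-keto reductase, was called higher in all 4 tumor comparisons (3.08 in fl/fl and 3.38 in ΔK14 against treated skin). Gsto1, an omega class glutathione transferase, rose by 3.38 in fl/fl (SE 0.73, adjusted p = 0.0161) and by 3.87 in ΔK14 tumors (SE 0.32, adjusted p = 0.000207). In fl/fl tumor replicates 1, 2 and 3, Gsto1 was at 1340, 208.2 and 217.1 CPM and Akr1b8 at 112.2, 32.0 and 30.4 CPM. All lay above fl/fl treated skin, but replicate 1, the shallowest library, was far the highest for both. It also had the highest keratinocyte marker sum, and the part of this in the 2 rises was not tested. The sulfotransferase gene Sult2b1 rose by 1.76 and 2.02. Mgst1 was called in fl/fl tumors (2.03, SE 0.59, adjusted p = 0.0395) with overlap between the groups, and Gstp1 in ΔK14 tumors (1.38, SE 0.21, adjusted p = 0.00213). Ephx2, the soluble epoxide hydrolase, was called in both genotypes with opposite signs, by 2.91 in fl/fl (SE 0.87, adjusted p = 0.0439) and -2.18 in ΔK14 tumors (SE 0.59, adjusted p = 0.0199), each with overlapping groups, and the test of the difference between the genotypes gave -5.07 (SE 1.18, adjusted p = 0.203). Ephx2 was at 4.51, 129.3 and 81.3 CPM in the fl/fl tumors and 7.16 to 11.1 CPM in fl/fl treated skin, and Mgst1 at 113.7, 464.7 and 785.7 CPM and 106.0 to 114.7 CPM. Both were high in fl/fl tumor replicates 2 and 3, the libraries with 3334 and 6229 CPM of sebaceous gland markers, and not in replicate 1, and the part of this in the 2 calls was not tested. Nqo1 belongs to this list too.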

How the data were processed

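RNA-seq libraries were prepared by the authors with the Ovation SoLo kit from sorted epidermal cells of 6 groups. The deposited table held raw counts per gene, made by the authors. Per the labels, the submitters' processing notes name Trimmomatic 0.36, STAR 2.5.3, HTSeq 0.9.1, DESeq2 and the build mm10, without roles, and whether strand was used is not given in the sources used here. Counts of members that overlap other annotated genes (Ahr, Arnt2, Tiparp, Ephx1, Por and Cyp2s1) are therefore uncertain. Tables of the authors' own fold changes and p-values were not used.

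Members and gene lists were chosen with earlier results of these data known. In R 4.3.3, edgeR 4.0.16 (with limma 3.58.1) was run on the libraries of the groups compared, with filterByExpr, TMM and the two-sided quasi-likelihood test, adjusted by Benjamini-Hochberg over all genes tested. Standard errors are those of fitted log2 fold changes. The labels do not say whether replicates came from separate animals, so p-values measure the spread between libraries, which may be technical. Named list genes were those with the smallest p among calls, up to 3 per direction, in comparisons of tumors, with Arnt, Cyb5a and Cyb5r3. Not every gene that met this rule is reported here. Aldh3a1, Cyp1a2 and Dcn were chosen after their values were seen. Alternatives were DESeq2 1.42.0, edgeR's exact test, a single fit, RLE scaling, other filters, a replicate block, and each library left out. The procedures were tested on simulated data. Positions came from GENCODE M21 (GRCm38).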

Additional observations from a re-analysis of the deposited data

How the results depend on the processing

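The number of called members (main, 2) in fl/fl tumors against mock skin was 3 in a single fit of all 6 groups and 4 without a filter on low counts. It was 0 with a replicate block, and in ΔK14 tumors against mock skin (main, 2) it was 0 with a replicate block. Without the filter 1 member, Cyp2s1, was called between genotypes in tumors (main, 0; 1.18, adjusted p = 0.0423) and in the interaction of genotype with tumors against treated skin (main, 0; 1.55, adjusted p = 0.0184). The count for tumors against treated skin was 4 in fl/fl and 3 in ΔK14 mice under each of the other tools, scalings, filters and the block, DESeq2 and the exact test included. The cause of these changes was not tested. The block changed no other count. In no comparison with 3 pairs did same-numbered libraries deviate together in every pair, so the numbers were not taken to pair samples. The 2 pairs of mock libraries did deviate together, at correlations of 0.782 and 0.568. These 2 values are not independent, since deviations of 2 ΔK14 libraries from their mean mirror each other. Between genotypes in mock skin the block called 110 of 15920 genes, against 0 without it. Whether the mock libraries are paired is not known.

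When each library was left out in turn, the count ranged from 0 to 2 between genotypes in tumors and between treated and mock skin in fl/fl, from 0 to 3 when fl/fl tumors were set against mock skin, from 2 to 4 for fl/fl tumors against treated skin, from 0 to 5 for ΔK14 tumors against mock skin, from 3 to 4 for ΔK14 tumors against treated skin and from 0 to 1 for the interaction of genotype with tumors against treated skin. The 2 calls between genotypes in tumors (Cyp1b1 and Cyp2s1) needed the absence of fl/fl tumor replicate 1, Cyp1b1 then being at -1.62 with an adjusted p of 0.0314 and 2613 of 15463 genes being called, against 4 of 14067. Fl/fl tumors against mock skin kept 0 calls without mock replicate 2 or 3 or tumor replicate 2 or 3, and ΔK14 tumors against mock skin 0 without tumor replicate 2 or 3 and 1 without tumor replicate 1, against 4 and 5 without mock replicates 1 and 2.

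Directions that turned were all of differences not called with all libraries. Ahr between genotypes in tumors was 0.0115 without the filter, and Ephx1 in ΔK14 tumors against mock skin was -0.110 with the identical columns as 2 libraries. With a library left out, log2 fold changes ranged from -0.28 to 0.79 for Cyp1b1 between genotypes in mock skin, from -1.0 to 0.36 and from -0.25 to 0.0688 for Ahr between genotypes in treated skin and in tumors, from -0.24 to 0.36 for Ephx1 in fl/fl tumors against treated skin, from -0.67 to 0.43 for Cyp1b1 in ΔK14 treated against mock skin, from -1.30 to 1.32 for Ahr and from -0.50 to 1.79 for Ephx1 in ΔK14 tumors against mock skin, and from -0.94 to 0.44 for Ahr in ΔK14 tumors against treated skin. Depth limits Ahrr, Arnt2 and Cyp1a1, where 3 counts were 0.289 to 1.5 CPM.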
